A study of Mus musculus with 8 samples.

Results

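The genes of the CREM axis in mouse spermatids are 8 transcripts, chosen by gene symbol from a table of 16349 genes: Crem, Fhl5, Fhl4, Ep300, Crebbp, Kif17, Creb1 and Atf1. All 8 were in the table and all 8 passed the filter on low values, with at least 10 normalised reads in every library. CREM is the transcription factor of haploid male germ cells that binds cAMP response elements (CREs) in the promoters of many postmeiotic genes. In most cells its relatives CREB1 and ATF1 need phosphorylation to recruit the acetyltransferases p300 (Ep300) and CBP (Crebbp). In spermatids CREM is instead activated by ACT, the LIM-only protein encoded by Fhl5, and the kinesin KIF17 can carry ACT out of the nucleus. CARM1 is an arginine methyltransferase that methylates p300 and CBP in other cells, and the series' title sets it against an axis of p300, ACT and the activator form CREM tau, which is the question behind the comparison of genotypes.

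RNA was sequenced from 2 kinds of C57BL/6 testis cells, round spermatids and the later elongating spermatids, each labelled WT or cKO, the knockout being that of Carm1 per the series' design text. Each of these 4 groups had 2 libraries: round WT, round KO-labelled, elongating WT and elongating KO-labelled. Cells of a sample were pooled from 8 testes and purified by elutriation. The Cre driver, the deleted exons and the age of the mice do not stand in the labels. Nor do the labels say whether libraries of a group came from separate mice, so each p-value rests on a spread between libraries that may be technical.

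Levels are the authors' normalised read counts unless stated, and the 8 libraries held 17190962 to 23526694 reads recovered from them. A gene was called at a limma adjusted p (Benjamini-Hochberg over 15685 genes) under 0.05, and rose or fell means called. Carm1, the targeted gene, was lower in round KO-labelled cells (1175 and 1343 normalised reads against 1649 and 1686) but higher in elongating ones (8157 and 7993 against 4308 and 4534), with log2 changes of -0.41 and 0.87, the latter 0.31 with total-count scaling. A gene total cannot show whether exons were deleted, so it does not check the label. The libraries are called KO-labelled throughout. The authors' scaling matters here: the 50 most abundant genes took 10.1% to 10.3% of reads in round and 31.9% to 34.9% in elongating libraries. With total-count scaling the median log2 change of all genes went from 0.025 to -0.06 in round and from -0.07 to -0.61 in elongating KO-labelled against WT. From round to elongating cells it went from 0.01 to -1.42 in WT and from 0.01 to -1.87 in KO-labelled libraries. Rises and falls of all genes changed from 3041 and 1977 to 2197 and 3059 in round KO-labelled libraries, and from 4279 and 4348 to 1394 and 9854 in elongating ones. Between the stages they changed from 6548 and 6300 to 3066 and 10799 in WT, and from 6677 and 6552 to 2617 and 11421 in KO-labelled libraries.

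In round spermatids 5 of the 8 genes rose in the KO-labelled libraries, where 19.4% of all tested genes rose, and 1 fell, where 12.6% of all fell. The rises of Fhl5, Fhl4, Kif17, Crebbp and Atf1 were small, and the fall was that of Ep300. In elongating spermatids 4 rose (27.3% of all genes) and 3 fell (27.7%). Crem, Fhl4, Kif17 and Atf1 rose, while Fhl5, Ep300 and Creb1 fell. The median log2 change of the 8 was 0.15 in round and 0.29 in elongating cells, beside 0.025 and -0.07 over all genes. The median absolute change was 0.18 and 0.64, beside 0.24 and 0.45 over all genes. With total-count scaling the members called were 1 higher and 1 lower in round cells, where 14% and 19.5% of all genes were, and 3 higher and 4 lower in elongating cells, where 8.89% and 62.8% were.

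**Figure D1:**
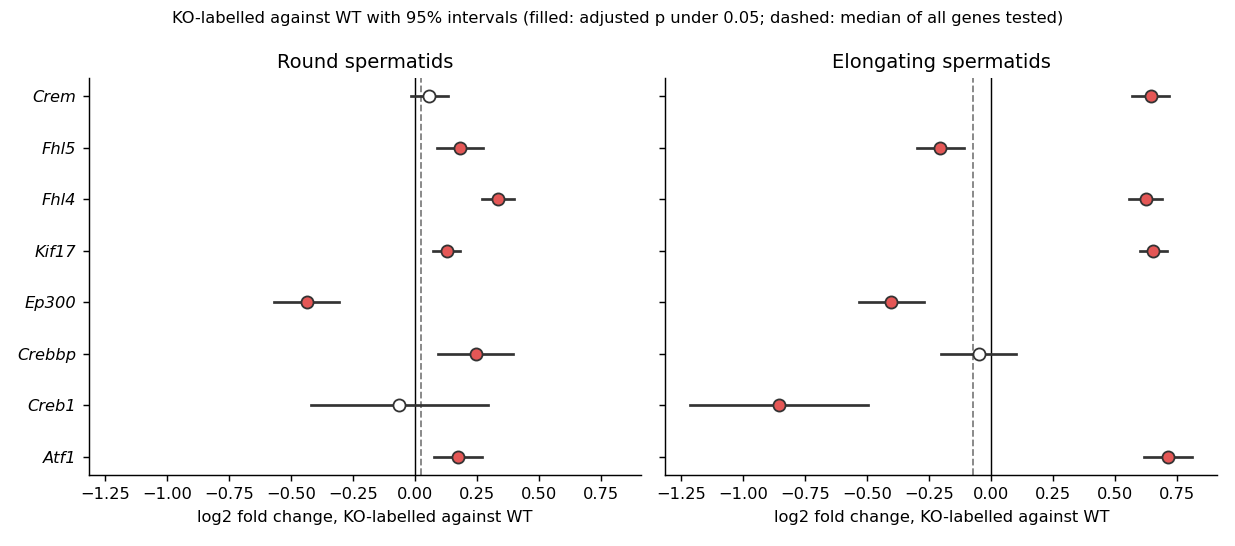
Log2 fold change of each axis gene in KO-labelled against WT libraries (x axis, on the log2(value + 1) scale), at the round and the elongating stage; bars are 95% intervals of the fit, filled points have an adjusted p under 0.05, and the dashed line is the median of all genes tested. Ep300 lies left of 0 at both stages (-0.44 and -0.40), and Fhl5 lies right of 0 in round (0.18) and left of it in elongating cells (-0.20).

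Crem encodes the transcription factor at the centre of the axis, and lies on chromosome 18 (3266048 to 3337748, minus strand, GRCm38). Round libraries held 3347 and 3336 normalised Crem reads with the WT label and 3468 and 3496 with the KO label. Elongating WT libraries held 3050 and 3063, and their KO-labelled counterparts 4728 and 4834. The elongating KO-labelled libraries stood above the other 6, which lay within a narrow range. In elongating cells the log2 change was 0.65 (SE 0.035, limma adjusted p = 6.15e-10), and in round cells 0.06 (95% interval -0.02 to 0.13, adjusted p = 0.22). The elongating rise went with the scaling: as RPM (reads scaled to the same library total) the WT values were 101.1 and 100.7 and the KO-labelled ones 104.6 and 109.0, a log2 change of 0.08 (adjusted p = 0.0481). Relative to the median of all genes it was 0.72 as deposited and 0.69 by totals. The gene makes activators and, from an internal promoter, the ICER repressors, and a gene total does not separate them. GENCODE lists 39 transcripts, and 8.01% of the exon bases overlap Gm6225 on the opposite strand, which a kit without strand marking cannot tell apart.

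Fhl5 encodes ACT, the LIM-only coactivator of CREM, and lies on chromosome 4 (25199908 to 25242876, minus strand). Round WT cells had 1476 and 1518 normalised Fhl5 reads, against 1697 and 1699 with the KO label. Elongating WT cells had 5083 and 5098, against 4616 and 4232. At each stage the genotypes did not overlap, and they went in opposite directions. The log2 change was 0.18 in round cells (SE 0.04, limma adjusted p = 0.00521) and -0.20 in elongating cells (SE 0.04, adjusted p = 0.00116). The elongating fall held in all alternatives run, at -0.77 with total-count scaling, where the median of all genes was -0.61. The round call ended with total-count scaling (0.09, limma adjusted p = 0.091) and with library sizes without the 50 most abundant genes (0.096, adjusted p = 0.083). It also ended without round WT replicate 1 (0.16).

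Fhl4 encodes another testis LIM-only protein of the four-and-a-half-LIM family (chromosome 10, 85096287 to 85102495, minus strand). It was the most abundant member per length in every group. The round libraries gave 29553 and 29559 normalised reads (WT) and 36072 and 38545 (KO-labelled). The elongating libraries gave 119830 and 121538 (WT) and 189653 and 182358 (KO-labelled). Both genotypes stood apart at both stages, with the KO-labelled libraries higher. The round rise of log2 0.34 (SE 0.03, limma adjusted p = 1.15e-06) was called in every alternative run, at 0.25 with total-count scaling. The elongating rise of 0.62 (SE 0.03, adjusted p = 2.16e-10) was 0.06 with total-count scaling (adjusted p = 0.053). The median of all genes there was -0.07 as deposited and -0.61 by totals. No 50-base stretch of Fhl4 or Fhl5 transcripts occurs in transcripts of another gene of the annotation.

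**Figure D2:**
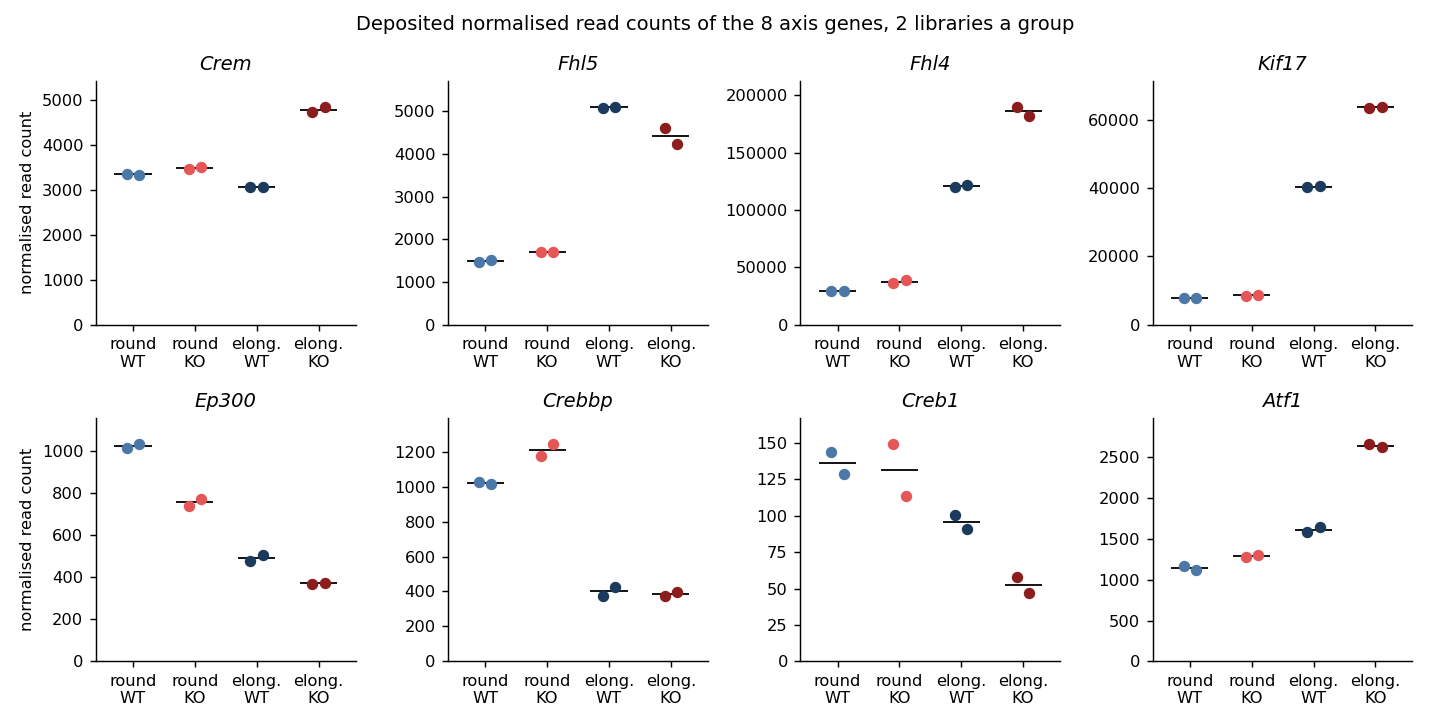
Deposited normalised read counts (y axes, each from 0) of the 8 axis genes in round and elongating (elong.) WT and KO-labelled libraries; points are libraries and lines the mean of 2. Fhl4 reached 189653 and Kif17 63755 in elongating KO-labelled libraries, whereas Ep300 and Crebbp were lower in every elongating than in every round library.

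Kif17 encodes a kinesin-2 motor whose testis form is known to bind ACT (chromosome 4, 138250435 to 138301967, plus strand). Normalised Kif17 counts were 7816 and 7950 (WT) and 8557 and 8678 (KO-labelled) at the round stage. At the elongating stage they were 40276 and 40518 (WT) and 63571 and 63755 (KO-labelled). The libraries of a group lay close together and no groups overlapped. The log2 change was 0.13 (SE 0.03, limma adjusted p = 0.00145) in round and 0.66 (SE 0.03, adjusted p = 2.66e-11) in elongating cells. With total-count scaling these were 0.04 (limma adjusted p = 0.242) and 0.09 (adjusted p = 0.00339), beside medians of all genes of -0.06 and -0.61. The round call also ended with library sizes without the 50 most abundant genes (0.042, adjusted p = 0.205). Sh2d5 shares 74 of its exon bases on the same strand, 1.62% of the exon length, and reads there could belong to either gene.

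CREM binds CREs, whose full form is TGACGTCA. The promoter windows of the axis genes and of CREM-dependent genes were searched on both strands. Only exact matches to the full CRE and to its core TGACG were counted. A window spans 250 bases before to 50 after a RefSeq start site (GRCm38.p6). Of the members, 7 had 8 windows in the RefSeq table, all but Crem. The full CRE was in 1 of these, that of Kif17, and in 1.79% of all 32851 windows. The core, which the full CRE contains, was in 2 of the 8, those of Kif17 and Atf1, and in 20.8% of all windows. Of 19 CREM-dependent genes, 14 had 18 windows, 0 with the full CRE and 2 with the core, those of Ldhc, the testis lactate dehydrogenase gene, and Gapdhs, the sperm glyceraldehyde-3-phosphate dehydrogenase gene. These 4 windows are shown 5′ to 3′ with the full CRE (Kif17) or the core (the others) in capitals. The member windows were added after the matches were seen.
Kif17, chr4:138262001-138262300, plus strand: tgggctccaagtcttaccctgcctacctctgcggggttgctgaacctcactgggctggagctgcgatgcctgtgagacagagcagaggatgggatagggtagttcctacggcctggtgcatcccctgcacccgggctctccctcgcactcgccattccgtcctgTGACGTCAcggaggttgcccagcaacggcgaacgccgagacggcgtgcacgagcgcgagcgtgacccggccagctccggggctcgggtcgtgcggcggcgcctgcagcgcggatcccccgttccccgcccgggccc
Atf1, chr15:100227609-100227908, plus strand: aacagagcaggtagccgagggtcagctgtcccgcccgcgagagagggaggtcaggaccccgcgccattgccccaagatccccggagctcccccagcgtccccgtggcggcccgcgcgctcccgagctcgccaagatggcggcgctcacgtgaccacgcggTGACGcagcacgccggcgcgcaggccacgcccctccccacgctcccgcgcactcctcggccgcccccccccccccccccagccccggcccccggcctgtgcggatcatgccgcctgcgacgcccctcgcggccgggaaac
Ldhc, chr7:46861013-46861312, plus strand: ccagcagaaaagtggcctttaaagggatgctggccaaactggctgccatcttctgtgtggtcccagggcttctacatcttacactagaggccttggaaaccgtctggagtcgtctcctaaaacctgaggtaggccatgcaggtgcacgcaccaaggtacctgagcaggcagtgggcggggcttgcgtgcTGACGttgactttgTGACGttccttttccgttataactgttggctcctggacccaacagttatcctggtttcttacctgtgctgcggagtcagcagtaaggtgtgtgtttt
Gapdhs, chr7:30743632-30743931, minus strand: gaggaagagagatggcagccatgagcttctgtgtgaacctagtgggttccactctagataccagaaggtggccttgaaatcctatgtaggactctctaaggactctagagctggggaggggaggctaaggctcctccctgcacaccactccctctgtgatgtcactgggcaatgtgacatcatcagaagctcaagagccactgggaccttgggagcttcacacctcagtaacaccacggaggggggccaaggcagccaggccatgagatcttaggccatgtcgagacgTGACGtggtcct
The CRE of Kif17 starts 86 bases before the RefSeq start site, which lies inside the GENCODE gene. The core of Atf1 starts 90 bases before, those of Ldhc 61 and 47 bases before, and that of Gapdhs 38 bases after. A match is a description of these letters and no evidence of binding. Variants of the CRE were not searched for, such as the tgatgtca in the window of Gapdhs. A window without a match may therefore still hold a variant, and the counts do not show that CREM sites are absent.

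Ep300 encodes the acetyltransferase p300 (chromosome 15, 81585351 to 81652077, plus strand). Of round libraries, those labelled WT had 1014 and 1035 normalised Ep300 reads and those labelled KO 741 and 774. Of elongating libraries, the WT pair had 478 and 506 and the KO-labelled pair 368 and 375. KO-labelled libraries were lower at both stages with no overlap. The log2 change was -0.44 (SE 0.06, 95% interval -0.57 to -0.31, limma adjusted p = 7.38e-05) in round and -0.40 (SE 0.06, interval -0.53 to -0.27, adjusted p = 5.24e-05) in elongating cells. Both falls were called in all 17 alternatives, from -0.53 to -0.41 in round and from -0.96 to -0.36 in elongating cells. With total-count scaling, one of these, the median of all genes was -0.06 in round and -0.61 in elongating cells. By totals 19.5% and 62.8% of all genes fell, in that order.

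Crebbp encodes CBP, the close relative of p300 (chromosome 16, 4081328 to 4213997, minus strand). At the round stage the WT libraries had 1024 and 1015 normalised reads and the KO-labelled ones 1173 and 1245. At the elongating stage both ranges were low, 374 and 427 (WT) against 374 and 398 (KO-labelled). In round cells the KO-labelled libraries were higher, and in elongating cells the genotypes overlapped. The round rise was log2 0.25 (SE 0.07, limma adjusted p = 0.0152). Its call ended with total-count scaling (0.16, adjusted p = 0.104) and with library sizes without the 50 most abundant genes (0.159, adjusted p = 0.0982). The call also ended without round WT replicate 1 (0.25), round WT replicate 2 (0.24) or round KO-labelled replicate 2 (0.20). The elongating change was -0.05 (95% interval -0.20 to 0.10, adjusted p = 0.571), 0.05 without elongating WT replicate 2, and -0.61 with total-count scaling (adjusted p = 1.63e-06). The median of all genes by totals was also -0.61 in that comparison.

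Creb1 encodes CREB, the CREM relative of somatic cells (chromosome 1, 64532645 to 64604548, plus strand). It was the lowest of the 8 per length in every group. Normalised Creb1 counts were 144 and 129 (WT) and 149 and 114 (KO-labelled) in round cells. They were 100.6 and 90.9 (WT) and 58.2 and 47.1 (KO-labelled) in elongating cells. The elongating libraries rest on 78 and 63 WT reads and 30 and 25 KO-labelled ones. The genotypes overlapped in round cells (log2 -0.06, 95% interval -0.42 to 0.30, limma adjusted p = 0.826), and this value was 0.02 without round WT replicate 1 and 0.13 without round KO-labelled replicate 2. In elongating cells the KO-labelled libraries were lower by a log2 change of -0.86 (SE 0.17, limma adjusted p = 0.000522). All 17 alternatives called this fall, between -1.40 and -0.71. With total-count scaling, one of these, the median of all genes there was -0.61 and 62.8% of all genes fell.

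Atf1 encodes the third factor of the CREB family (chromosome 15, 100227819 to 100261244, plus strand). Round WT and KO-labelled pairs had 1162 and 1114 and 1272 and 1299 normalised Atf1 reads. The elongating pairs had 1578 and 1640 and then 2663 and 2620, in the same order. On this scale its groups stood in ascending order as listed, like those of Fhl4 and Kif17. The round rise was log2 0.18 (SE 0.045, limma adjusted p = 0.00794). Its call ended with total-count scaling (0.09, adjusted p = 0.152) and with library sizes without the 50 most abundant genes (0.09, adjusted p = 0.139). The call also ended without round WT replicate 2 (0.15) or round KO-labelled replicate 2 (0.16). The elongating rise of 0.72 (SE 0.045, adjusted p = 3.93e-09) was 0.15 with total-count scaling (adjusted p = 0.00669), where the median of all genes was -0.61. Of the 50-base stretches of its transcripts, 12.1% also occur in transcripts of other genes, a pseudogene Atf1-ps among them, so part of its reads is uncertain.

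The effect of the KO label differed between the stages in 4 genes towards a higher value in elongating cells, where 19.3% of all genes did, and in 3 towards a lower value, where 17.5% did. The difference was log2 0.59 for Crem, 0.54 for Atf1, 0.53 for Kif17 and 0.29 for Fhl4, and -0.79 for Creb1, -0.39 for Fhl5 and -0.30 for Crebbp. For Ep300 it was 0.03 (95% interval -0.15 to 0.22, limma adjusted p = 0.808). With total-count scaling 0 genes differed upwards and 5 downwards, Fhl4 at -0.19 and Ep300 at -0.44 among them, while of all genes 858 (5.47%) did so upwards and 7069 (45.1%) downwards. The value of Fhl5 was called in every alternative run, between -0.86 and -0.32. That of Creb1 lost its call without round WT replicate 2 (-0.72, adjusted p = 0.0767), without round KO-labelled replicate 1 (-0.60, 0.107), without elongating WT replicate 1 (-0.72, 0.0594) and with DESeq2 (-0.81, 0.0527). That of Crebbp lost it with DESeq2 (-0.29, adjusted p = 0.0859) and without 5 of the 8 libraries in turn, which were both round WT libraries (-0.30, 0.0862, and -0.29, 0.0987), round KO-labelled replicate 2 (-0.25, 0.127), elongating WT replicate 2 (-0.20, 0.133) and elongating KO-labelled replicate 1 (-0.25, 0.0663).

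From round to elongating WT cells, 4 members were higher (41.7% of all genes) and 4 lower (40.2%). Kif17 was 5.12-fold, Fhl4 4.08-fold and Fhl5 3.40-fold higher in elongating cells, and Atf1 1.41-fold, each on the log2(value + 1) scale. Crebbp and Ep300 fell by 1.35 and 1.06 on the log2 scale, Creb1 by 0.51 and Crem by 0.13. The call of Creb1 ended without round WT replicate 1 (-0.43, limma adjusted p = 0.0943) and without elongating WT replicate 2 (-0.43, 0.0733). In KO-labelled cells 5 were higher (42.6% of all genes) and 3 lower (41.8%), with Crem now higher by log2 0.46. Kif17 changed by 2.89, Fhl4 by 2.32, Fhl5 by 1.38 and Atf1 by 1.04, and Crebbp by -1.64, Creb1 by -1.30 and Ep300 by -1.02. The stage and genotype comparisons share libraries, so these are values side by side. With total-count scaling Kif17 and Fhl4 were still higher in elongating cells (0.89 and 0.56 in WT, 0.94 and 0.38 in KO-labelled). Crem was lower in both genotypes (-1.60 and -1.48) and so was Atf1 (-0.97 and -0.90). Fhl5 was higher in WT (0.30) and lower in KO-labelled cells (-0.56). The median of all genes by totals was -1.42 in WT and -1.87 in KO-labelled cells. By totals 19.5% and 16.7% of all genes were higher and 68.8% and 72.8% lower, in that order.

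**Figure D3:**
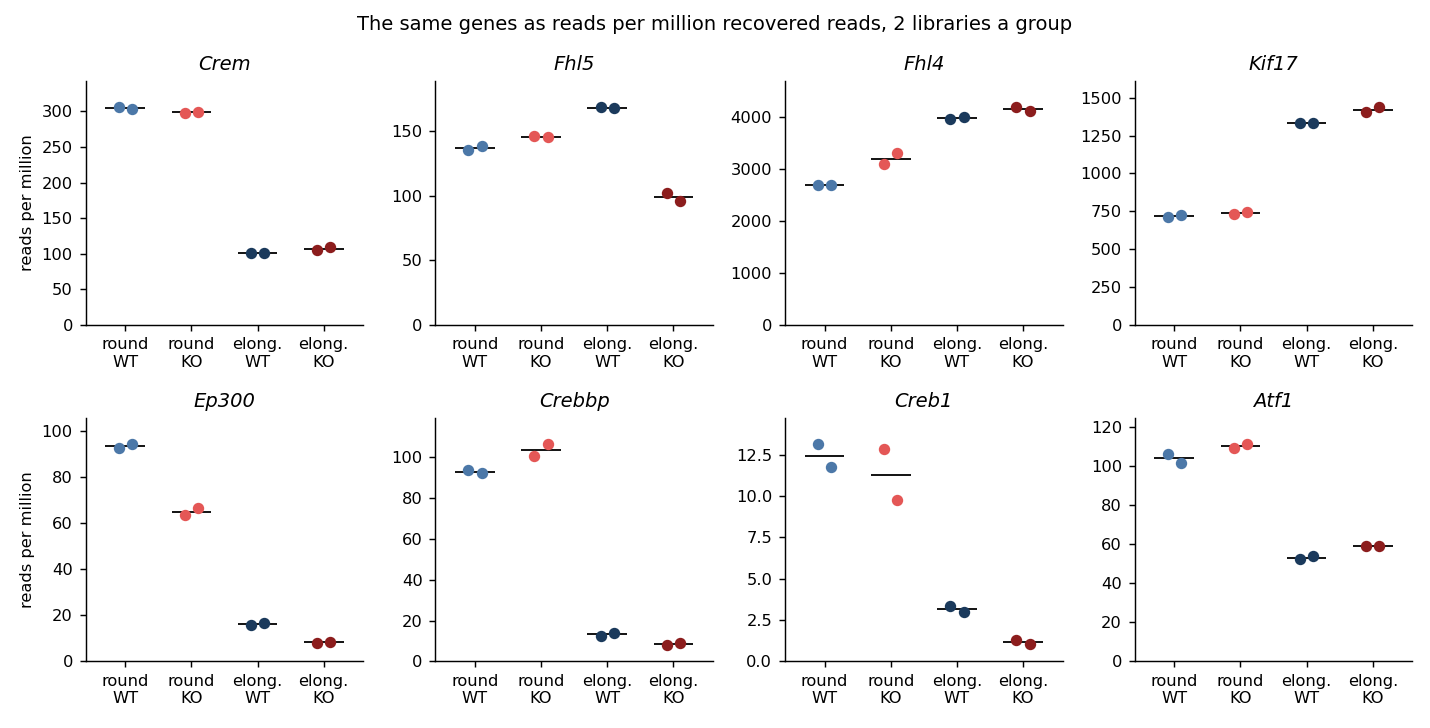
RPM, reads scaled to the same library total (y axes, each from 0) of the 8 axis genes in round and elongating (elong.) WT and KO-labelled libraries; points are libraries and lines the mean of 2. On this scale Crem was about even between genotypes (100.7 to 109.0 in elongating cells) and lower in elongating than in round cells. With total-count scaling the median of all genes was also lower there (log2 -1.42 in WT and -1.87 in KO-labelled cells). Fhl5 was 168.4 and 167.6 in elongating WT against 102.1 and 95.4 in elongating KO-labelled libraries.

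Ratios of reads between members in the same library do not depend on the scaling between libraries. The ratio of Fhl5 to Crem was 0.441 and 0.455 (WT) against 0.490 and 0.486 (KO-labelled) in round cells. It was 1.67 and 1.66 (WT) against 0.976 and 0.876 (KO-labelled) in elongating cells. The elongating KO-labelled mean was thus 0.556 of that in WT. The ratio of Kif17 to Crem in elongating cells was 13.2 and 13.2 (WT) and 13.5 and 13.2 (KO-labelled), and that of Fhl4 to Crem 39.3 and 39.7 against 40.1 and 37.7, with overlap in both. In round cells the ratio of Kif17 to Crem went from 2.34 and 2.38 to 2.47 and 2.48, and that of Fhl4 to Crem from 8.83 and 8.86 to 10.4 and 11.02.

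The ratio of Ep300 to Crebbp, the alternative acetyltransferases, was 0.990 and 1.02 (WT) against 0.632 and 0.622 (KO-labelled) in round cells. In elongating cells it was 1.28 and 1.19 against 0.985 and 0.943, so the genotypes did not overlap at either stage. Ep300 to Crem fell to 0.709 of the WT mean in round and 0.483 in elongating cells. Atf1 to Creb1 was 15.7 and 18.1 in elongating WT but 45.8 and 55.6 in the KO-labelled pair, and overlapped in round cells. These ratios are a description and were not tested as such.

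**Figure D4:**
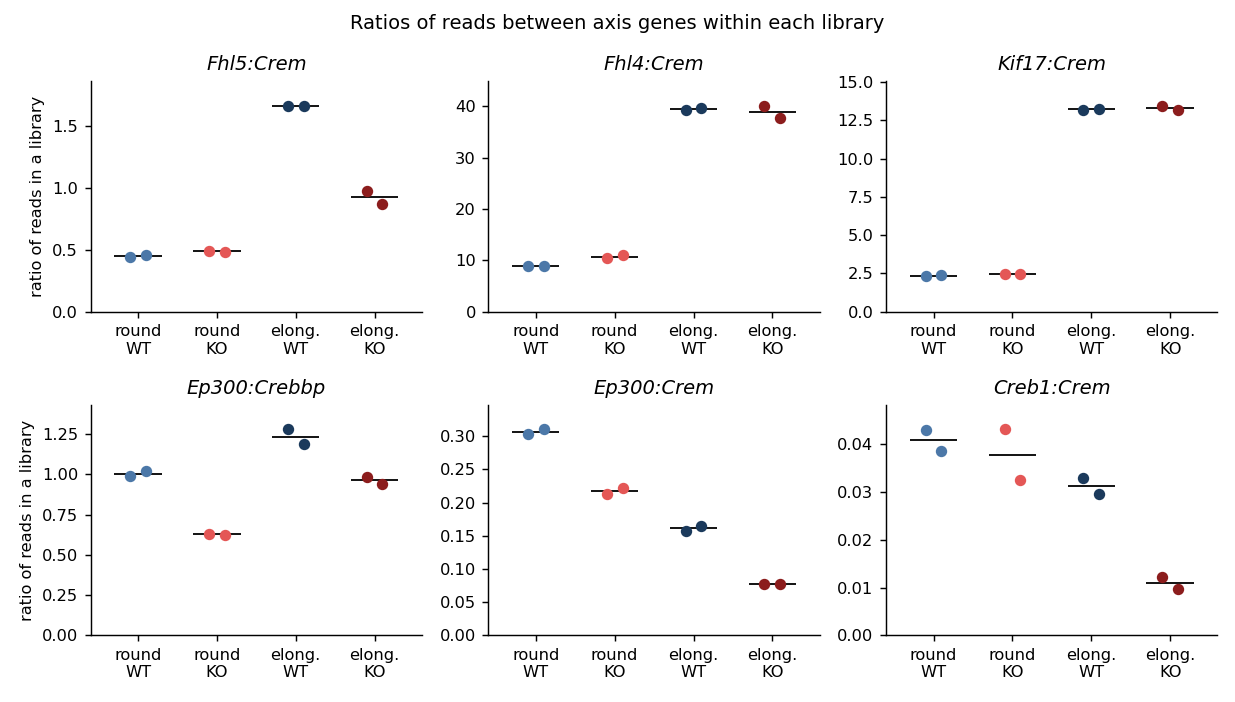
Ratios of recovered reads between pairs of axis genes within each library (y axes, each from 0) in round and elongating (elong.) WT and KO-labelled libraries; points are libraries and lines the mean of 2. Fhl5:Crem was lower in elongating KO-labelled (0.976 and 0.876) than in elongating WT libraries (1.67 and 1.66), whereas Kif17:Crem overlapped between them.

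Per kilobase of exon (GENCODE M21, all exons of a gene merged), the order in round WT was Fhl4 with 8316 ± 1.23 normalised reads, Kif17 with 1720 ± 20.7, Fhl5 with 1278 ± 25.7, Crem with 567 ± 1.27, Atf1 with 372 ± 10.99, Crebbp with 75.3 ± 0.457, Ep300 with 71.8 ± 1.06 and Creb1 with 9.92 ± 0.766 (SD, n = 2). Neighbours in this order did not overlap between libraries. In round KO-labelled cells the order was the same. In elongating WT cells Atf1 (526 ± 14.3) and Crem (519 ± 1.54) overlapped and thus had no clear order, and Ep300 (34.5 ± 1.38) stood above Crebbp (29.6 ± 2.77). In elongating KO-labelled cells Atf1 (863 ± 9.79) was above Crem (811 ± 12.6) and Crebbp (28.5 ± 1.23) above Ep300 (26.1 ± 0.330). These levels depend on the merged length, which was 1171 bases for Fhl5, 3060 for Atf1, 5895 for Crem, 13540 for Crebbp and 14273 for Ep300. Overlap between libraries does not measure the uncertainty of these lengths. Before division by length, Crebbp (1024 and 1015) and Ep300 (1014 and 1035) overlapped in round WT. Crem (4728 and 4834) was then above Atf1 (2663 and 2620) in elongating KO-labelled cells.

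Among all genes tested, 27.3% rose and 27.7% fell in elongating KO-labelled libraries, and 19.4% and 12.6% did so in round ones. Spermatid marker genes moved with the elongating comparison. Of 6 elongating markers, such as the protamine gene Prm2, all 6 rose in the KO-labelled libraries, from 9.09% to 9.11% of reads in WT to 10.7% in both KO-labelled libraries. Of 6 round markers, 5 fell and 1 rose, from 0.0518% to 0.0533% down to 0.0346% to 0.0353% of reads. Sertoli markers fell in 8 of 9 cases (0.0224% to 0.0225% against 0.0104% to 0.0106% of reads) and macrophage and leukocyte markers in 8 of 8 (0.0143% to 0.0144% against 0.00398% to 0.00427%). Spermatocyte markers fell in 5 of 9 and rose in 2 (0.00414% to 0.00449% against 0.00271% in both libraries), 7 calls by limma against 3 by edgeR and 3 by DESeq2. Of 8 spermatogonia markers 4 fell and 1 rose (0.00318% to 0.00328% against 0.00166% to 0.00172% of reads). Of 4 measured Leydig markers 1 rose, and their share went up (0.000199% to 0.000265% against 0.000293% to 0.000339%). Of 7 peritubular and vascular markers 4 rose and 2 fell, and their share also went up (0.00481% to 0.00500% against 0.00727% to 0.00736%). In round cells Sertoli markers fell in 6 of 9 cases (0.00308% to 0.00312% against 0.00171% to 0.00181%), spermatocyte markers fell in 5 and rose in 1, round markers rose in 4 of 6, elongating markers in 4 of 6, macrophage markers in 3 of 8 and spermatogonia markers in 3 of 8 (0 by DESeq2). Peritubular and vascular markers rose in 2 of 7 cases and fell in 1 there, and 0 of the 4 Leydig markers passed by limma (1 at an unadjusted p under 0.05, and 0 by edgeR). With total-count scaling the elongating comparison gave 4 rises and 0 falls of elongating markers, 0 and 6 of round, 0 and 8 of Sertoli and 0 and 8 of macrophage markers. It gave 4 and 2 of peritubular and vascular, 1 and 0 of Leydig, 0 and 5 of spermatogonia and 0 and 7 of spermatocyte markers. There 8.89% of all genes rose and 62.8% fell. The round comparison by totals gave 2 rises and 0 falls of round markers, 1 and 0 of elongating, 0 and 0 of spermatogonia and 1 and 6 of spermatocyte markers. It gave 0 and 7 of Sertoli, 3 and 1 of macrophage, 1 and 0 of Leydig and 2 and 1 of peritubular and vascular markers. Of all genes 14% rose and 19.5% fell in that comparison. No measured marker was at 0 reads in any group. The part of these shifts in the values of the axis genes was not tested, and in bulk RNA fewer cells of a type and less RNA per cell cannot be told apart.

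CREM-dependent genes, known from mice that lack CREM or from promoter studies, rose in 14 of 19 cases and fell in 2 in round KO-labelled libraries, where 19.4% of all genes rose and 12.6% fell (median log2 0.18, beside 0.025 over all genes). The largest rises were those of Cmtm2b, a chemokine-like factor gene, at 0.38 (SE 0.04, limma adjusted p = 1.66e-06), the testis phosphoglycerate kinase gene Pgk2 at 0.35, Gapdhs at 0.32 and the transition protein gene Tnp2 at 0.32. Camk4 (-0.15) and the sperm calcium channel gene Catsper1 (-0.19) fell. In elongating cells 14 rose and 3 fell, where 27.3% and 27.7% of all genes did (median 0.62, beside -0.07 over all genes). All 6 elongating markers described above (Prm1, Prm2, Tnp1, Tnp2, Odf1 and Smcp) and 2 of the round markers (Acr and Acrv1) belong to these 19 genes, so the marker counts and these are not separate observations. Without those 8, a choice made after seeing the data, 9 of 11 rose and 2 fell in round cells, and 8 rose and 1 fell in elongating cells. Gapdhs went from 202168 and 205031 normalised reads to 396096 and 393001 (0.95), Prm2 rose by 0.89 and Akap4, a scaffold of the sperm tail, by 0.88. The acrosomal genes Acrv1 and Acr fell by 0.89 and 0.63, and Catsper1 by 0.35. With total-count scaling the 19 gave 9 rises and 2 falls in round cells (14% and 19.5% of all genes) and 8 and 7 in elongating cells (8.89% and 62.8%). Of the 2 genes whose promoter windows are shown, Ldhc had changes of 0.26 and 0.11, both called as deposited.

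**Figure D5:**
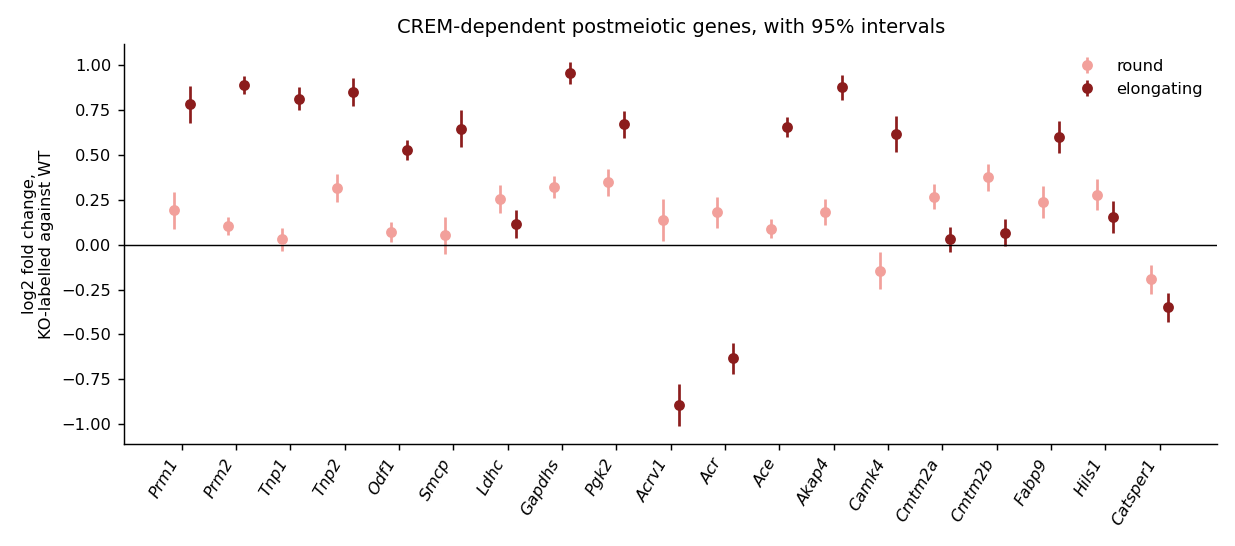
Log2 fold change of 19 CREM-dependent genes in KO-labelled against WT libraries (y axis), in round (light) and elongating (dark) cells; bars are 95% intervals of the fit. Gapdhs, at 0.95, is highest in elongating cells and Acrv1, at -0.89, lowest.

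Beside the counts of related genes below, 19.4% of all genes rose and 12.6% fell in round cells, and 27.3% and 27.7% in elongating cells. By totals these shares were 14% and 19.5% in round and 8.89% and 62.8% in elongating cells. Of 16 tested CREB and ATF relatives and coactivators, 1 rose and 1 fell in round cells, Atf6 by 0.80 (SE 0.11, limma adjusted p = 8.41e-05) and Atf4 by -0.34. In elongating cells 3 rose and 8 fell, with Crtc2, a CREB coactivator gene, from 193 and 183 to 380 and 390 normalised reads (log2 1.03) and Crebl2 at -0.72. With total-count scaling 1 rose and 10 fell there. Germ-cell transcription partners rose in 2 of 7 cases and fell in 1 in round cells, and rose in 3 and fell in 4 in elongating cells. With total-count scaling 0 rose and 2 fell in round cells. In elongating cells the TBP-like factor gene Tbpl1 fell by 0.85 and Rfx2 rose by 0.81, and the counts by totals were also 3 higher and 4 lower. Of 8 kinesin-2 and KIF17 partner genes 0 were called in round cells by limma (0 of 8 at an unadjusted p under 0.05, and 2 by edgeR). In elongating cells 3 rose and 2 fell: Tsn, an RNA-binding protein known to travel with KIF17, by -1.08 and Piwil1 by -0.56, while Kifap3, the adaptor of the related kinesin KIF3, went from 11245 and 11365 to 16739 and 16175 normalised reads (0.54). With total-count scaling 0 of the 8 rose and 6 fell.

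The shares of all genes beside the next counts were again 19.4% higher and 12.6% lower in round cells, and 27.3% and 27.7% in elongating cells. By totals they were 14% and 19.5% in round and 8.89% and 62.8% in elongating cells. Acetyltransferase and p160 partners of p300 rose in 1 of 11 cases and fell in 1, Carm1, in round cells. The rise was that of Cited4, by 1.52 from 36.9 and 22.4 to 73.8 and 96.9 normalised reads. In elongating cells 2 rose, Carm1 by 0.87 and the p160 coactivator gene Ncoa2 by 0.35, and 3 fell, the arginine methyltransferase gene Prmt1 by 0.92 among them. With total-count scaling 1 rose and 6 fell in round cells and 1 rose and 10 fell in elongating cells. Of 20 genes of cAMP and CREM kinase signalling, 4 rose and 3 fell in round cells, the soluble adenylyl cyclase gene Adcy10 by -0.35 and the PKA subunit gene Prkar1b by 0.42. In elongating cells 7 rose and 5 fell, with Pde11a at 1.91 from 5.16 and 11.5 to 27.2 and 37.7 normalised reads and Prkar1b at 0.94. Total-count scaling gave 1 rise and 5 falls in round and 3 and 14 in elongating cells. Of 5 tested LIM-only relatives Fhl2 alone was called in round cells (1.19, adjusted p = 0.0465), at 4 and 1 WT reads against 9 and 6 KO-labelled ones, and the call ended in 10 of the 17 alternatives. These included edgeR (adjusted p = 0.072), DESeq2 (0.159), a pseudocount of 10 (0.215), no filter (0.0504) and only the 4 libraries compared (0.0562). The others left out 1 library: round WT replicate 2 (0.61, adjusted p = 0.38), round KO-labelled replicate 1 (0.88, 0.28) or 2 (1.495, 0.0581), and elongating WT replicate 1 (0.0664) or 2 (0.0679). In elongating cells 0 of the 5 were called by limma (1 at an unadjusted p under 0.05, and 1 by edgeR).

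The profile of Crem over the 8 libraries was matched most closely, among 8605 genes with a mean of at least 100 normalised reads, by Rnf216, a ubiquitin ligase gene, with a root mean square difference of 0.033 on the log2 scale after centring. Nup50 (0.051) and the poly(A) polymerase gene Papola (0.053) came next. Fhl5 was nearest to Tprgl (0.066), Ptms (0.067) and Pcca (0.086), Fhl4 to BC030336 (0.046), Xrra1 (0.049) and Spata21 (0.049), and Kif17 to Gpd2 (0.040), Ttbk2 (0.045) and Fam53c (0.050). Ep300 was nearest to Ccdc88c (0.062), Hnrnpc (0.077) and Ncl (0.081), Crebbp to Fnip1 (0.052), Tmem97 (0.054) and Stim1 (0.055), Creb1 to Dnajc8 (0.107), Stard3 (0.115) and Klhl21 (0.137), and Atf1 to Pgrmc2 (0.036), Pkig (0.040) and Lrrc56 (0.043). These are likenesses over the same libraries, with their stage and genotype in common. Of all genes compared, 4.71% lay within 0.2 of Crem, 1.52% within 0.2 of Fhl5 and 0.953% within 0.2 of Creb1.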

How the data were processed

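RNA of 8 spermatid libraries (poly A selected and made with TruSeq v2, which keeps no strand, per the labels) was processed by the authors with DESeq 1.16.0, HTSeq 0.6.0, TopHat2 2.0.10 and CASAVA 1.8.2 on mm10/GRCm38, per the submitters' processing notes. The deposited signal values are read counts per gene divided by a size factor for each library. Dividing by the step of each column gave whole reads for 100% of values (tolerance 1e-06), which count tests used as alternatives. Every gene had at least 15 reads in all.

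Values were tested as log2(value + 1) with limma 3.58.1 in R 4.3.3, with trend, in 1 fit of the 4 group means. Genes reaching 10 in 2 or more libraries entered (15685), and fold changes on this scale understate those of low genes. Alternatives were edgeR 4.0.16, DESeq2 1.42.0, 2 other library sizes (totals, and totals without the 50 most abundant genes), pseudocounts of 0.5 and 10, no filter, a replicate block, only the 4 libraries compared and each library left out. Named relatives were the called genes of each list with the largest changes. In tests on simulated round-spermatid counts (15613 genes), 60% of 100 genes changed 2-fold and 51% of 100 changed 1.5-fold were recovered, with 2 of 15415 unchanged genes called. Far fewer genes were changed there than were called in the data, and the elongating comparison was not simulated. These rates therefore need not hold for the calls reported here. The members and lists were chosen with earlier results of these data known.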

Additional observations from a re-analysis of the deposited data

Results flagged for a closer look

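The effect of the KO label differed between round and elongating spermatids in 7 of the 8 axis genes, by limma's test of the difference itself (elongating minus round, log2). The difference was 0.586 for Crem (SE 0.049, adjusted p = 2.59e-07), 0.539 for Atf1 (SE 0.064, adjusted p = 9e-06), 0.528 for Kif17 (SE 0.037, adjusted p = 4.24e-08) and 0.289 for Fhl4 (SE 0.043, adjusted p = 8.16e-05). It was -0.794 for Creb1 (SE 0.236, adjusted p = 0.016), -0.386 for Fhl5 (SE 0.062, adjusted p = 0.000165) and -0.295 for Crebbp (SE 0.100, adjusted p = 0.0309). Of all genes tested, 19.3% differed upwards and 17.5% downwards. With total-count scaling 0 axis genes differed upwards and 5 downwards: Crem (0.112, adjusted p = 0.0728), Kif17 (0.053, 0.216) and Atf1 (0.065, 0.411) were no longer called, and Fhl4 turned to -0.186. Of the 7, 1 (Fhl5) was called in the same direction in every alternative run.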

How the results depend on the processing

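Of the 17 alternatives, scaling moved the results most. The number of axis genes called in round KO-labelled against WT libraries went from 6 to 2 with total-count scaling and to 2 with library sizes without the 50 most abundant genes. Over libraries left out in turn it was 4 to 6 there, 7 to 8 between the stages in WT, and 5 to 7 for the difference between the stages' KO effects, which was 5 with DESeq2 and with total-count scaling. Signs turned under these scalings, in that order, for Crem in round cells (-0.030 and -0.027), for the stage differences of Fhl4 (-0.186 and -0.124) and Ep300 (-0.439 and -0.377), for Atf1 between stages in WT (-0.967 and -0.539) and, between stages in KO-labelled cells, for Atf1 (-0.902 and -0.412), Crem (-1.483 and -0.993) and Fhl5 (-0.561 and -0.071). The stage difference of Ep300 was 0 with edgeR. The cause was not tested. With libraries left out, Creb1 in round cells ran from -0.257 to 0.133, Crebbp in elongating cells from -0.145 to 0.046 and the stage difference of Ep300 from -0.008 to 0.073; none of these was called as deposited.

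With the replicate number as a block (replicate block), 6, 7, 7, 8 and 8 axis genes were called in round, elongating, the difference, and between stages in WT and in KO-labelled cells, the same counts as without it. Same-numbered libraries did not deviate together (correlations of -0.015 to 0.031 over 6 pairs of groups). This gave no sign of pairing, but with only 2 libraries a group it cannot exclude pairing. The difference between the stages was not fitted with only the 4 libraries of a stage, since it needs both. Depth limits Creb1, at 25 to 78 reads in elongating libraries.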
